A study of Danio rerio with 12 samples.

Results

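Gills of adult zebrafish exposed to zinc oxide (ZnO) nanoparticles were set directly against gills exposed to nickel oxide (NiO) nanoparticles, using 6 of the 12 arrays of the series. The arrays were taken by their sample titles: ZnO replicates 1 to 3 at 4.8 mg/L and NiO replicates 1 to 3 at 17.5 mg/L, both after 96 h in the water without feeding. Each array carried RNA of gills pooled from 10 fish, and the replicates were separate pools. The labels give no strain, genotype or sex. Each dose was scaled to the median lethal concentration of its own particle and the doses differ, so metal and dose cannot be told apart, and no control array entered the comparison. Levels are log2 processed signals minus the 75th percentile of their array, and differences are ZnO minus NiO on that log2 scale, so a difference of 1 is a 2-fold higher signal in ZnO.

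The gill is the surface through which fish exchange gas, ammonia and ions with the water, and its epithelium is in direct contact with waterborne metals. ZnO particles can release zinc ions, which in vertebrate cells activate the transcription factor Mtf1 and through it the metallothioneins that bind zinc. Nickel ions are known to hinder the iron-dependent hydroxylases that mark hypoxia-inducible factor for destruction. Gills also hold many resident lymphocytes and phagocytes, which answer virus-like signals through interferon and tissue damage through chemokines and chaperones.

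Epithelial genes were at a like level on the 6 arrays, while transcripts of other tissues were not. The median of 54 epithelial and mucous cell genes lay between 2.93 and 3.38 on all 3 ZnO arrays and between 2.96 and 3.19 on all 3 NiO arrays. The transcription factor gcm2, which gill and ionocyte development need in zebrafish and which was picked after its values were seen, had levels of -0.09, 0.94 and -1.33 on ZnO arrays 1, 2 and 3. On NiO arrays 1, 2 and 3 it had 0.18, -5.03 and 0.93, so this gill marker was low on NiO 2, apart from the other 5. Other ionocyte genes went the other way: foxi1 and slc12a10.1, described below, were highest on NiO 2. The median of 71 ion transport and ionocyte genes was -0.81 on NiO 2 and -0.57 to 0.31 on the other arrays. The epithelial genes are not particular to the gill. In bulk tissue, fewer cells of a type and less RNA per cell cannot be told apart.

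Transcripts of the eye, the exocrine pancreas, the liver and the ovary were abundant on some arrays and much lower on others. Genes of the lens and retina (72 tested) had a median level of -5.02 on ZnO 1, against 2.68 and 1.70 on ZnO 2 and 3, and -4.28 on NiO 2, against 1.95 and 2.1 on NiO 1 and 3. For 44 pancreas and intestine genes it was -3.96, 0.40 and 2.63 on the ZnO arrays and 2.5, 2.52 and 2.87 on the NiO arrays. For 45 oocyte and early germ cell genes it was -5.16, -4.61 and -4.27 on the ZnO arrays and 1.75, -3.46 and -3.93 on the NiO arrays. By list medians, ZnO 1 was thus low in eye, pancreas and liver transcripts, NiO 2 was low in eye transcripts, and NiO 1 alone was high in egg transcripts. Individual genes show the size of these gaps. The digestive protease prss1 was 0.35 on ZnO 1 and 4.80 to 5.76 on the other 5 arrays, the lens crystallin cryba2b was -0.78 on ZnO 1 and -3.58 on NiO 2 and 3.89 to 4.61 elsewhere, and the egg coat gene zp3b was 3.36 on NiO 1 and -3.17 to -2.14 elsewhere. Not every egg gene followed the median: the egg coat gene zp3d.2 was 2.12 on NiO 1, 1.43 on ZnO 3 and -2.92 to -0.89 elsewhere.

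**Figure D1:**
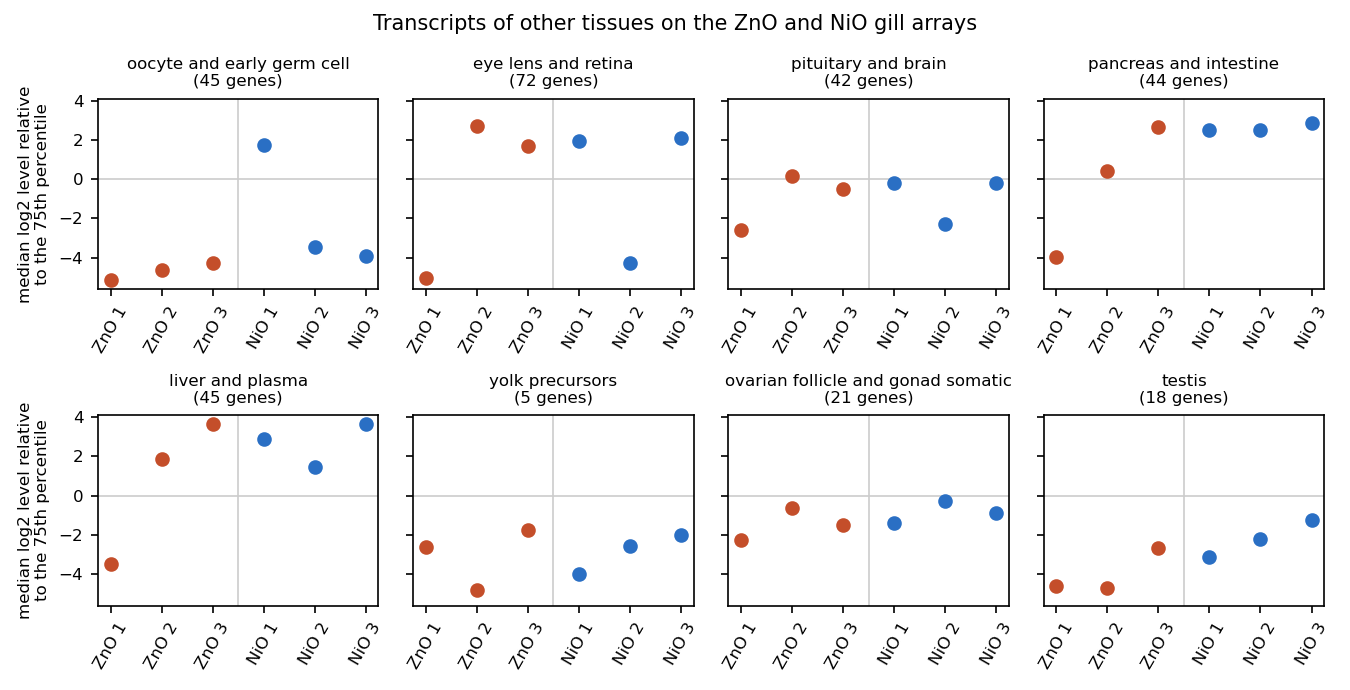
Median log2 level, with the array's 75th percentile at 0, of 8 lists of genes of other tissues on each ZnO array (left 3 points, orange) and each NiO array (right 3 points, blue). Eye genes are low on ZnO 1 (-5.02) and NiO 2 (-4.28), pancreas and intestine genes are low on ZnO 1 (-3.96), and oocyte genes are high on NiO 1 (1.75).

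Pairs of arrays of different particles overlapped in likeness with pairs of the same particle. The correlation of levels across genes was 0.821, 0.808 and 0.932 between pairs of ZnO arrays and 0.818, 0.929 and 0.840 between pairs of NiO arrays. Between the particles it ran from 0.774 (ZnO 1 with NiO 1) to 0.954 (ZnO 3 with NiO 3), and ZnO 1 was closest to NiO 2 (0.880), the other array low in eye transcripts. These correlations are over 12054 genes, which are not independent replicates. Each slide held 1 array of each group, with ZnO always at position 3 and NiO always at position 4, so position and particle cannot be told apart. Between 75.5% and 87.9% of the spots on the ZnO arrays and between 78.0% and 85.8% on the NiO arrays were well above background, and 0 spots were saturated. The number of arrays, 3 per group, limits the precision.

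No single gene separated the particles beyond the spread between pools after adjustment for all genes tested. With limma (moderated variances, Benjamini-Hochberg adjustment), 0 of 12054 genes (0%) had an adjusted p under 0.05, and the smallest adjusted p was 0.655. The gene with that value, described near the end, had background signals in ZnO and entered the fit only through the NiO arrays. At an unadjusted p under 0.05 there were 405 genes, 202 with ZnO higher (1.68%) and 203 with ZnO lower (1.68%). Of 11848 genes with a value on all 6 arrays, 667 lay higher on every ZnO array than on any NiO array (5.63%) and 334 lay lower on every ZnO array (2.82%). The median gene differed by 0.09, the median standard error of a difference was 0.48, and the median standard deviation within a group was 0.61. A threshold missed in 3 against 3 pools does not show that the particles act alike, so the differences below are given with their 95% intervals, which are per gene and not adjusted for the number of genes. The genes described next are those with the smallest unadjusted p among genes whose 6 values did not overlap between the particles and that were well above background on 2 or more arrays of each group. None of them was called, and their limma adjusted p-values were 0.993 or above. The genes cd8a and enpp2, described below, entered the fit only through the ZnO arrays. In turn ugt2a5, capslb and the later list members lin28ab, kdrl and slc12a10.1 entered only through the NiO arrays. Each was above background on only 2 of 3 arrays of the other group, so the filter favours its direction. Within the gene lists, members are drawn from those of smallest p and from a fixed panel, and further members are named for their separation or their role after their values were seen. A group left with 2 arrays separates from the other more easily, so counts without an array are set beside the share of all genes without it.

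**Figure D2:**
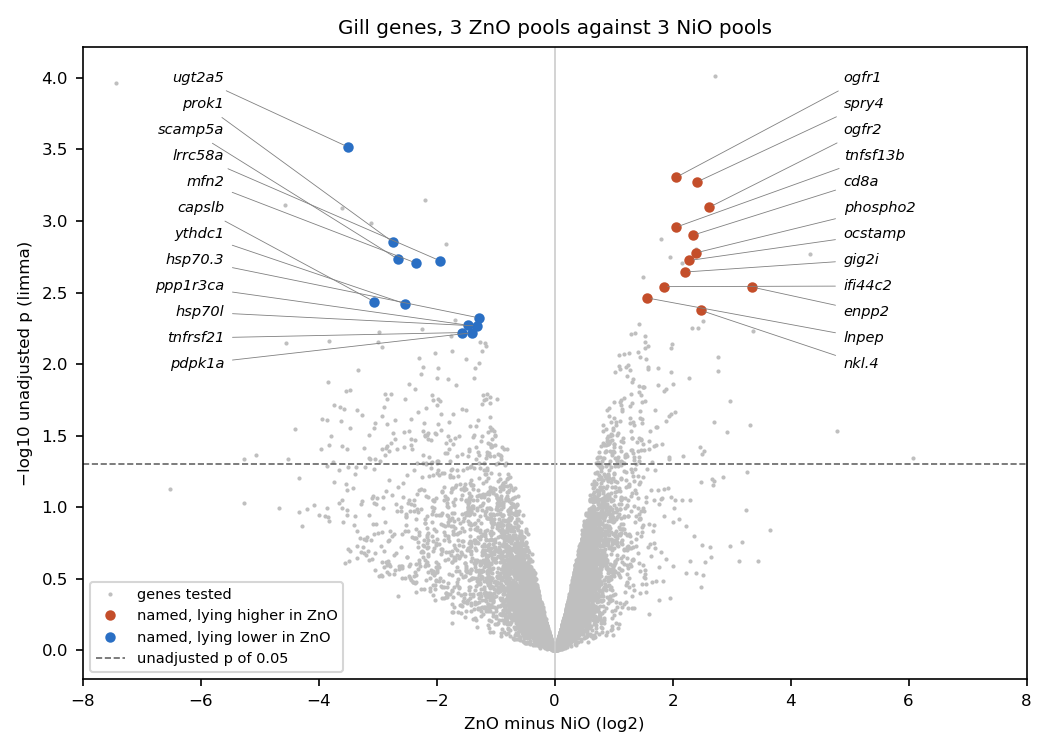
Each grey point is 1 of 12054 gill genes, with the ZnO minus NiO difference (log2) across and −log10 of the unadjusted limma p upward; the dashed line is an unadjusted p of 0.05. The 12 named genes lying higher in ZnO (orange) differ by 1.56 to 3.35 and the 12 lying lower (blue) by -3.49 to -1.27, and 0 genes passed after adjustment.

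Opioid growth factor receptor genes, a feedback regulator of growth factor signalling and immune genes led the side that was higher in ZnO. The T cell co-receptor cd8a had levels of -2.94, -3.72 and -3.99 in ZnO pools and -5.42, -6.28 and -5.98 in NiO pools, a difference of 2.34 (95% interval 1.32 to 3.37). It was above background on 2 of 3 NiO arrays. The NK-lysin gene nkl.4, which encodes a killing peptide of cytotoxic lymphocytes, had -1.3, -2.23 and -1.46 in ZnO pools and -3.82, -3.39 and -5.23 in NiO pools (difference 2.48, interval 1.11 to 3.86). The B cell survival cytokine tnfsf13b (BAFF) had -1.77, -1.83 and -0.98 in ZnO pools and -3.73, -3.65 and -3.36 in NiO pools (difference 2.05, interval 1.17 to 2.93). In each of these 3 genes the lowest ZnO pool lay more than 1 log2 unit above the highest NiO pool.

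Genes of interferon-inducible families and of the opioid growth factor receptor family stood beside them. The gig2 family member gig2i, from a fish gene family induced by virus infection, had 2.95, 1.78 and 2.82 in ZnO pools and 0.19, -0.05 and 0.77 in NiO pools (difference 2.21, interval 1.13 to 3.30). The Ifi44-type gene ifi44c2 differed by 1.85 (interval 0.90 to 2.80). The opioid growth factor receptor family was represented by ogfr1 (difference 2.06, interval 1.3 to 2.82, with 1.28, 1.31 and 0.93 in ZnO pools and -0.66, -1.15 and -0.84 in NiO pools) and ogfr2 (difference 2.62, interval 1.56 to 3.68). All 2 tested probes of ogfr1 and all 3 of ogfr2 lay higher in ZnO.

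The gene spry4 had the second smallest p of the 12. It encodes a Sprouty protein that damps receptor tyrosine kinase signalling, and its levels were 0.44, 1.16 and 0.86 in ZnO pools and -1.61, -1.17 and -1.99 in NiO pools, 5.32-fold apart (difference 2.41, interval 1.51 to 3.31). The lysophospholipase D enpp2 (autotaxin), which makes the lipid mediator lysophosphatidic acid, differed by 3.35 (interval 1.63 to 5.08), with -2.79, -1.45 and -3.01 in ZnO pools and -5.07, -7.10 and -5.14 in NiO pools. It was above background on 2 of 3 NiO arrays. The phosphatase phospho2 (2.4), the gene ocstamp, known in mouse for fusing osteoclast precursors (2.28), and the aminopeptidase lnpep (1.56) completed the 12. These genes were selected by smallest p on the same arrays, so the sizes of their differences are a description.

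**Figure D3:**
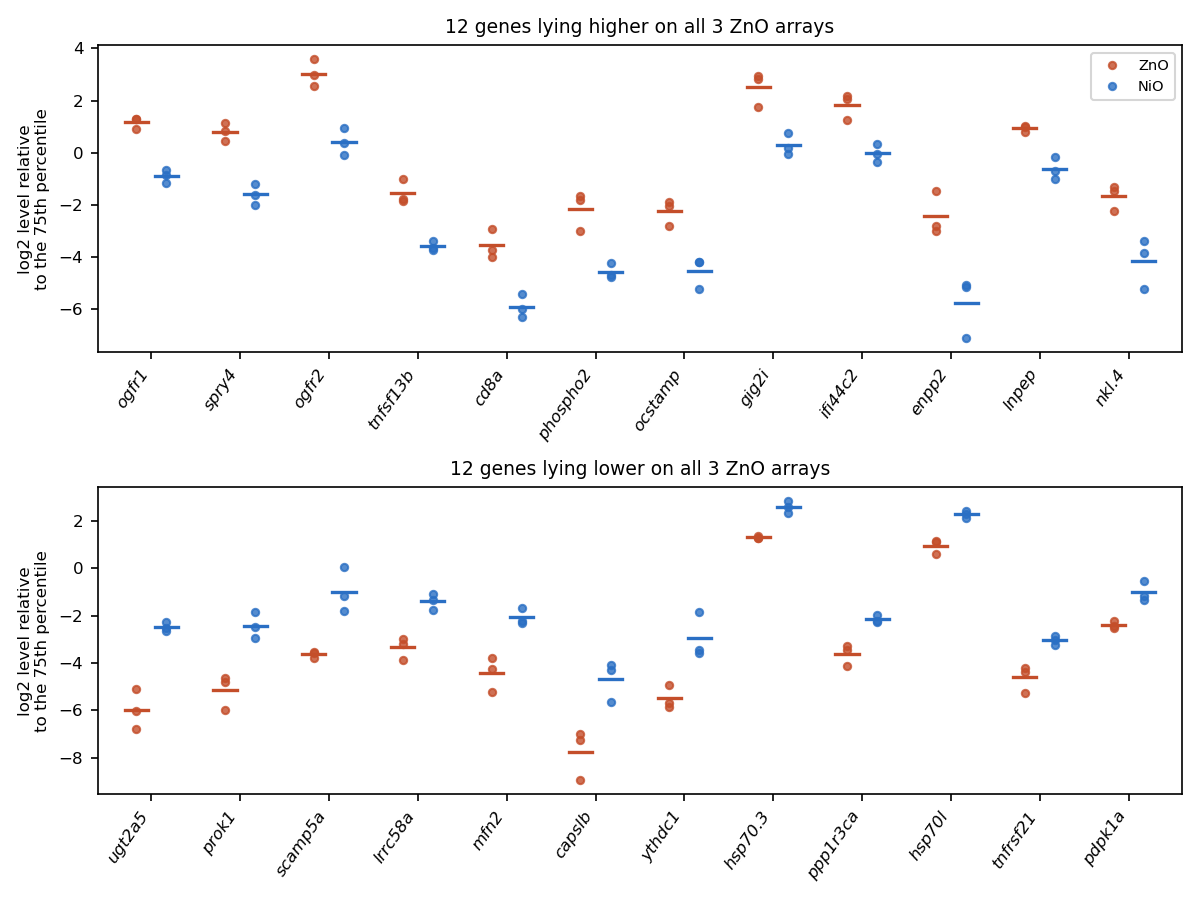
Level of each named gene on every array (points; log2, with the array's 75th percentile at 0), ZnO pools in orange at the left and NiO pools in blue at the right of each gene, with bars at the group means (n = 3 pools each). Upper panel, the 12 genes lying higher on every ZnO array; lower panel, the 12 lying lower, where hsp70.3 is 1.28 to 1.38 in ZnO and 2.34 to 2.83 in NiO.

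The side that was lower in ZnO held 2 inducible chaperones of the Hsp70 family with narrow spread. Levels of hsp70.3 were 1.29, 1.28 and 1.38 in ZnO pools and 2.60, 2.83 and 2.34 in NiO pools, a difference of -1.27 (interval -2.0 to -0.55). Levels of hsp70l were 0.62, 1.13 and 1.15 in ZnO pools and 2.43, 2.11 and 2.31 in NiO pools, a difference of -1.32 (interval -2.08 to -0.55). In both genes every NiO pool was above every ZnO pool, and both tested probes of each lay lower in ZnO. The 2 genes are close copies, and whether their probes bind each other's transcripts was not tested.

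The conjugating enzyme ugt2a5, a UDP-glucuronosyltransferase, had the smallest p on this side, with -5.09, -6.80 and -6.03 in ZnO pools and -2.5, -2.66 and -2.27 in NiO pools (difference -3.49, interval -4.68 to -2.31). The secreted factor prok1 (prokineticin) differed by -2.73 (interval -3.95 to -1.51) and the secretory vesicle protein gene scamp5a by -2.65 (interval -3.90 to -1.40). The mitochondrial fusion GTPase mfn2 had -5.22, -4.25 and -3.78 in ZnO pools and -2.30, -1.68 and -2.22 in NiO pools (difference -2.35, interval -3.47 to -1.23). All 4 were dim in ZnO, and ugt2a5 was above background on 2 of 3 ZnO arrays.

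The other six had different roles. They were ythdc1, a nuclear reader of methylated adenosine in RNA (-2.54), ppp1r3ca, which brings protein phosphatase 1 to glycogen (-1.47), pdpk1a, the kinase that activates Akt (-1.39), tnfrsf21, a death receptor (-1.57), the calcium-binding protein gene capslb (-3.06) and lrrc58a (-1.95). Of these, capslb was above background on 2 of 3 ZnO arrays.

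Interferon response genes were the list with the largest share of members higher in every ZnO pool. Of 30 such genes on the array 29 were tested, and 0 were called. Among the 28 with 6 values, 11 (39.3%) lay higher on every ZnO array, against 5.63% of all genes, and 1 lay lower, against 2.82%. The list's median difference was 0.67, beside 0.09 over all genes, and its median level was 1.01, 1.07 and 1.41 on the ZnO arrays and -0.20, -0.45 and 0.26 on the NiO arrays. The members named here were taken for their separated values, after those were seen, and no test of the list was made.

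RNA sensing and antiviral effector genes were among the 11. The cytosolic RNA sensor dhx58 (LGP2) had -2.34, -0.41 and -0.54 in ZnO pools and -3.23, -4.33 and -5.81 in NiO pools (difference 3.36, interval 1.37 to 5.35). The antiviral GTPase mxb had -1.73, -0.03 and 1.41 in ZnO pools and -2.89, -3.19 and -2.60 in NiO pools (difference 2.78, interval 0.88 to 4.67), and its relatives mxa and mxc differed by 1.58 and 1.31. The ubiquitin-like modifier isg15 had 3.34, 3.34 and 3.45 in ZnO pools and 0.45, 2.98 and 1.63 in NiO pools (difference 1.69, interval 0.13 to 3.25), so NiO 2 came close to the ZnO pools. The kinase pkz, which binds left-handed nucleic acid in fish, differed by 1.08 and parp14rs1, an ADP-ribosyltransferase relative, by 2.49, mostly through NiO 3 at -4.30.

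Transcription factors of the interferon response were among the 11 too. The factor irf9, part of the complex that binds interferon-response elements, differed by 0.67, irf1b by 0.49 and irf10 by 1.5. The intervals of irf9 and irf1b both reached below 0. Antiviral rsad2 (viperin) overlapped between the particles, with -4.14, -2.17 and -1.33 in ZnO pools and -4.87, -3.08 and -3.20 in NiO pools (difference 1.17, interval -0.90 to 3.23). The member that lay lower was tdrd7a, with -7.72, -7.92 and -4.57 in ZnO pools and -4.16, -4.38 and -4.03 in NiO pools. A probe not above background on any ZnO array had -7.23 on ZnO 1 and -6.84 on ZnO 2. The levels of tdrd7a on those arrays were lower still, so its gap there is not a measured size. The gene tdrd7a is also known for germ granules in zebrafish, and the part of germ cell transcripts in its values was not tested.

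The interferon count varied with the scaling and with single arrays. It was 10 (35.7%, beside 3.83% of all genes) with the percentile taken over probes above background everywhere and 11 (39.3%, beside 6.11%) after quantile normalization. With each array's median at 0 it was 9 (32.1%, beside 7.67%), and when ribosomal protein genes were used to centre each array it was 7 (25%, beside 2.46%). Without ZnO 1, the array poor in pancreas, liver and eye transcripts, 18 of 29 members (62.1%) lay higher on both ZnO arrays left, beside 11.3% of all genes. Without NiO 2 it was 15 of 28 (53.6%, beside 12%), without NiO 3 it was 13 (46.4%, beside 10.9%), and without ZnO 2, ZnO 3 or NiO 1 it was 11 (39.3%, beside 8.43% to 11.2%).

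Lymphocyte genes were the next list by share. Of 27 on the array 21 were tested. Of these, 6 (28.6%, beside 5.63% of all genes) lay higher on every ZnO array and 0 lay lower (beside 2.82%). The list's median difference was 0.53. Its median level was -1.54, -2.23 and -2.17 on the ZnO arrays and -2.53, -2.46 and -2.57 on the NiO arrays, so the groups did not overlap under this scaling. They did under ribosomal centring, where the list's median on ZnO 2 lay below the NiO arrays. Besides cd8a and nkl.4, T cell receptor signalling was represented by the kinase zap70, with -0.62, -0.53 and -0.92 in ZnO pools and -2.28, -2.79 and -1.61 in NiO pools (difference 1.54, interval 0.57 to 2.5), and by its adaptor lcp2a (0.92). The interleukin 7 receptor il7r (1.12) and the mucosal homing receptor ccr9a (0.74) were the other two. The helper T cell co-receptor cd4-1 overlapped, with a difference of 0.21 (interval -0.90 to 1.32). The count was 5 (23.8%, beside 2.46% of all genes) under ribosomal centring and 6 under the other scalings, where the share of all genes was 3.83% to 7.67%. Without ZnO 3 it was 9 (42.9%, beside 11.2%). It was 7 (33.3%, beside 8.43% to 12%) without ZnO 1, NiO 1 or NiO 2. It stayed at 6 (28.6%) without ZnO 2 (beside 1202 of 11854 genes) and without NiO 3 (beside 10.9%). Under ribosomal centring and under quantile normalization 1 member lay lower (4.76%, beside 4.45% and 2.4% of all genes). The lower count was also 1 without ZnO 2 (4.76%, beside 6.84%). The part of lymphocyte numbers in the interferon values was not tested.

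Inflammatory mediators leaned to ZnO by a count that depended on the scaling. Of 35 genes 7 (20%, beside 5.63% of all genes) lay higher on every ZnO array and 0 lay lower (beside 2.82%), with a median difference of 0.46. Under ribosomal centring the higher count was only 1 (2.86%), where the share over all genes was 2.46%. Without NiO 2 it was 16 (45.7%, beside 12% of all genes). The chemokine cxcl19 had 2.53, 1.39 and 1.59 in ZnO pools and 0.74, -1.53 and 0.19 in NiO pools (difference 2.04, interval 0.41 to 3.66). The chemokine ccl19a.1 differed by 1.42. The barrier cytokine il22 had -4.01, -5.07 and -6.24 in ZnO pools and was above background on 1 of 3 NiO arrays, so no size is given for it. For the cytokine tnfb the brightest probe differed by 1.01, while the mean of its 2 probes differed by -0.80, so its direction is not settled. Interleukin 1 beta (il1b) overlapped, with a difference of 0.21 (interval -1.38 to 1.81).

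Receptors and adaptors of innate cells were measured too. The lectin receptor gene illr1 had -1.02, -1.03 and 0.21 in ZnO pools and -4.04, -2.4 and -2.68 in NiO pools (difference 2.43, interval 1.00 to 3.86). The myeloid and natural killer signalling adaptor tyrobp had -0.95, -2.08 and -3.01 in ZnO pools and -4.07, -3.95 and -3.57 in NiO pools (difference 1.85, interval 0.49 to 3.21). The neutrophil peroxidase mpx overlapped, with -1.52, 2.49 and 0.57 in ZnO pools and -0.52, -0.14 and 1.16 in NiO pools. Over the whole myeloid list 3 of 32 members (9.38%) lay higher and 1 lower (3.12%), beside 5.63% and 2.82% of all genes. The lower member was cpa5, a carboxypeptidase also in the pancreas list. Antigen presentation genes had 1 of 21 members (4.76%, beside 5.63% of all genes) higher, the immunoproteasome subunit psmb10 (0.47). Without ZnO 3 it was 7 (33.3%, beside 11.2% of all genes) and without NiO 3 it was 6 (28.6%, beside 10.9%). The peptide-trimming enzymes erap1b and erap2 differed by 0.94 and 0.93, and the intervals of both reached below 0. The acute phase gene saa had 2.01, 1.15 and 2.76 in ZnO pools and 0.65, 1.97 and 0.17 in NiO pools (difference 1.04, interval -0.48 to 2.56).

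**Figure D4:**
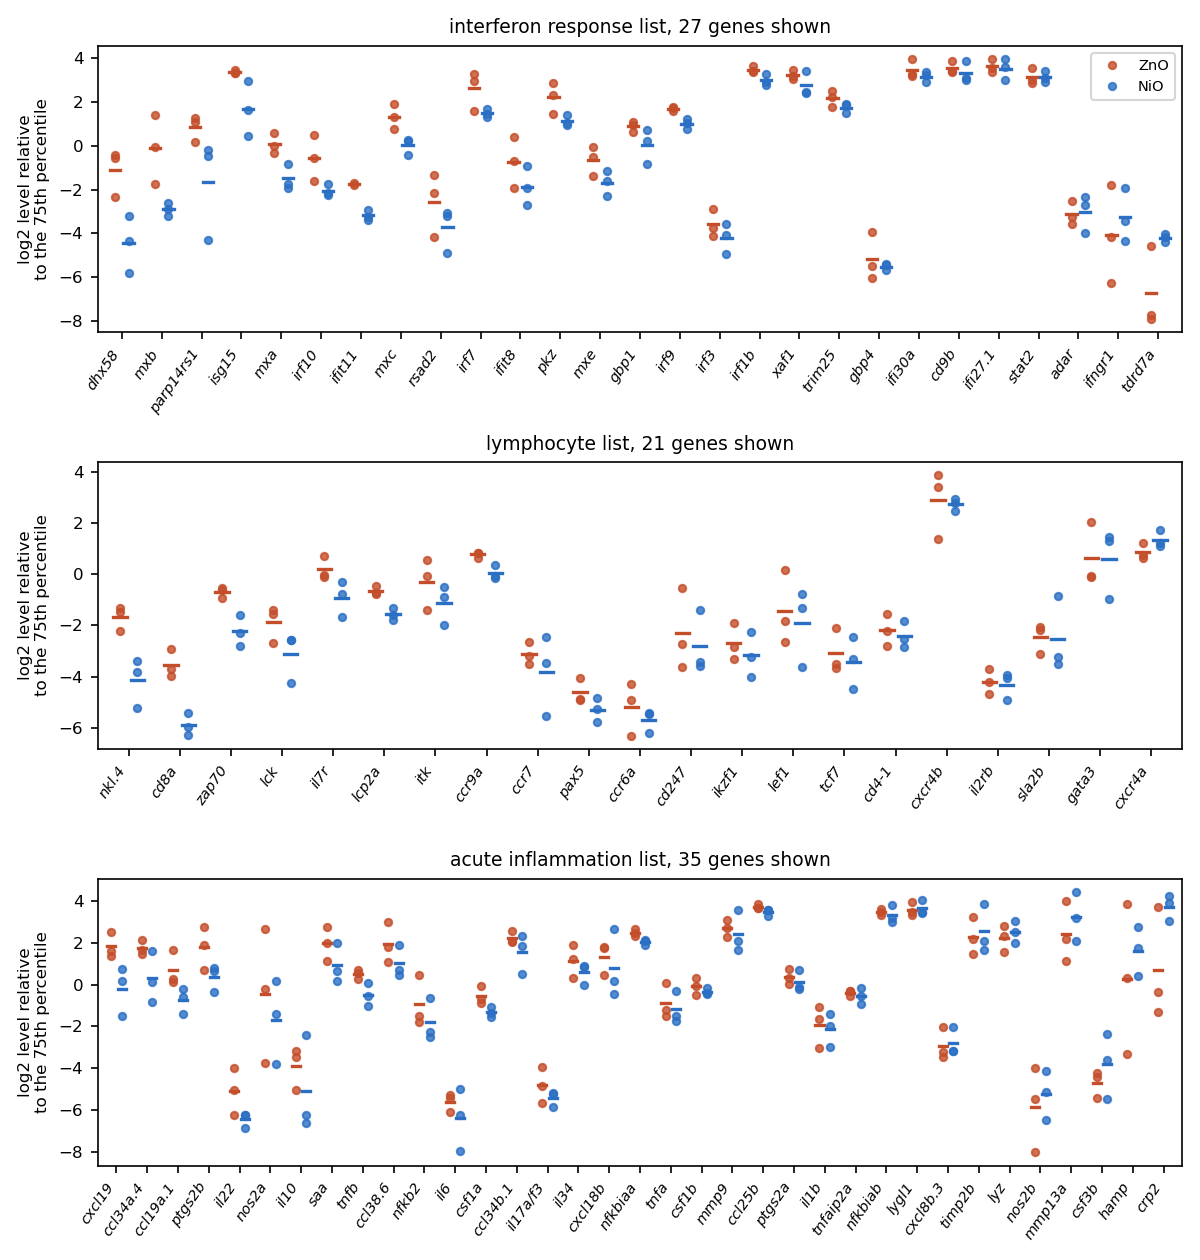
Levels (log2, with the array's 75th percentile at 0) of tested members of the interferon response, lymphocyte and acute inflammation lists, ordered by the difference, with ZnO pools in orange at the left and NiO pools in blue at the right of each gene and bars at the means of the pools measured. Members at the left end are separated (dhx58 differs by 3.36, nkl.4 by 2.48 and cxcl19 by 2.04), and most others overlap.

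Zinc handling genes include the metallothioneins and the zinc transporters. The metallothionein mt2 was abundant and close between the particles, with 3.1, 3.87 and 3.97 in ZnO pools and 3.97, 4.02 and 3.86 in NiO pools (difference -0.30, interval -1.16 to 0.55). The zinc sensor mtf1 differed by -0.03 (interval -0.79 to 0.72) and the zinc exporter slc30a1a by 0.31 (interval -0.84 to 1.45).

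Of 16 tested zinc genes, 2 (12.5%, beside 5.63% of all genes) lay higher on every ZnO array, both importers of the Slc39 family. Without ZnO 1 it was 5 (31.2%, beside 11.3% of all genes), with a median difference of 0.52 in place of 0.26. Without NiO 3, 4 lay higher (25%, beside 10.9%) and 2 lower (12.5%, beside 5.19%). The importer slc39a1 had 0.92, 2.18 and 1.25 in ZnO pools and -0.31, -0.10 and 0.11 in NiO pools (difference 1.55, interval 0.54 to 2.56), but only 2 of its 4 probes lay higher in ZnO. The Golgi transporter slc39a9 differed by 1.21 (interval -0.14 to 2.55), with 1 of its 2 probes higher. The probes of both genes thus disagreed. The exporter slc30a1b and the importer slc39a10 were not above background on all arrays of either group and were not tested.

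Hypoxia genes were examined because nickel is known to act on oxygen sensing. Of 39 members, 2 (5.13%) lay higher on every ZnO array and 0 lay lower, beside 5.63% and 2.82% of all genes. Without ZnO 1 it was 12 of 40 (30%, beside 11.3% of all genes), and the median difference was 0.36 in place of 0.10. The members separated on all 6 arrays were the growth factor vegfaa, with 1.36, 1.27 and 0.74 in ZnO pools and 0.23, 0.52 and 0.26 in NiO pools (difference 0.79, interval -0.00 to 1.57), and the hydroxylase hif1an (0.72, interval -0.15 to 1.6). The oxygen sensor egln3 varied within both groups, with 0.55, 1.93 and 3.38 in ZnO pools and -0.15, 1.80 and 0.31 in NiO pools. The glycolytic enzyme ldha differed by 0.17 (interval -0.67 to 1.01) and the hypoxia marker igfbp1a by 0.66 (interval -1.49 to 2.81). The stress gene ndrg1a differed by -0.24 (interval -1.43 to 0.95).

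Iron and copper genes had 1 separated member each. Among iron genes 1 of 18 (5.56%, beside 5.63% of all genes) lay higher, the ferritin-like fthl27 (0.46, interval -0.41 to 1.32). The transferrin receptor tfr1a differed by 1.05 (interval -0.54 to 2.64) and the iron exporter slc40a1 by -0.34 (interval -1.24 to 0.56). The divalent metal importer slc11a2 differed by 0.46 (interval -0.47 to 1.39). The superoxide dismutase sod1 (0.29) was the copper gene that lay higher, 1 of 10 (10%, beside 5.63% of all genes).

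Of 42 glutathione and peroxide defence genes, 5 (11.9%, beside 5.63% of all genes) lay higher on every ZnO array and 0 lower (beside 2.82%). The glutathione transferase gstp1.1 had 2.39, 3.33 and 4.23 in ZnO pools and 0.88, 0.22 and 2.03 in NiO pools, 4.84-fold apart (difference 2.28, interval 0.68 to 3.87). The peroxiredoxin prdx1 had 4.11, 3.62 and 4.07 in ZnO pools and 2.79, 2.06 and 3.04 in NiO pools (difference 1.3, interval 0.38 to 2.23), with all 3 probes higher. Glutathione reductase gsr (0.72), gstp1.2 (0.49) and sod1 were the other three. Other genes of the same defence overlapped: the quinone reductase nqo1 differed by 0.83 (interval -0.18 to 1.84), the glutathione synthesis subunits gclc and gclm by 0.41 and 0.49, and the haem oxygenase hmox1a by 0.23 (interval -1.90 to 2.36). The count was 3 of 42 (7.14%, beside 2.46% of all genes) under ribosomal centring. Without ZnO 1 it was 11 of 44 (25%, beside 11.3%), without NiO 3 it was 9 (21.4%, beside 10.9%), and without ZnO 2 it was also 9 (beside 1202 of 11854 genes).

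A few heat shock genes were separated, some lower and some higher in ZnO. The list leaves out hsp70.3, which lay lower and is described above. Of its 36 members, 2 (5.56%, beside 2.82% of all genes) lay lower and 3 (8.33%, beside 5.63%) higher on every ZnO array. Besides hsp70l, the Hsp70 gene hspa1b lay lower, with -3.53, -3.71 and -3.58 in ZnO pools and -2.67, -0.52 and -2.56 in NiO pools (difference -1.69, interval -3.20 to -0.19). Those higher were hspa13 (1.27), hspa4b (0.42) and the constitutive hspa8 (0.27), whose chosen probe was 1 of only 2 among 10 that lay higher. Under ribosomal centring 5 lay lower (13.9%, beside 4.45% of all genes) and 0 higher (beside 2.46%). Without NiO 2, 8 lay higher (22.2%, beside 12%), and without ZnO 2 5 lay lower (13.9%, beside 6.84%). The cytosolic chaperone hsp90aa1.1 differed by 0.33 (interval -1.17 to 1.83), with 3.39, 3.00 and 1.18 in ZnO pools and 1.93, 2.24 and 2.42 in NiO pools.

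Immediate early genes also lay on both sides. Higher on every ZnO array were 6 of 45 (13.3%, beside 5.63% of all genes), among them spry4, the stress factor atf3 and the growth response factor egr3. Lower were 2 (4.44%, beside 2.82%), nr4a2b and btg2. Levels of atf3 were 0.91, 1.88 and 0.97 in ZnO pools and -0.07, 0.33 and 0.26 in NiO pools (difference 1.07, interval 0.14 to 2.01). The orphan receptor gene nr4a2b had -1.28, -1.79 and -1.82 in ZnO pools and -0.52, -0.10 and -1.06 in NiO pools (difference -1.07, interval -1.99 to -0.15). The antiproliferative btg2 differed by -0.78 (interval -1.72 to 0.17), egr1 by -0.25 (interval -1.47 to 0.97) and the prostaglandin synthase ptgs2b by 1.41 (interval -0.09 to 2.91). The higher and lower counts were 3 (6.67%, beside 2.46% of all genes) and 2 (4.44%, beside 4.45%) under ribosomal centring. With each array's median at 0 they were 2 (4.44%, beside 7.67%) and 1 (2.22%, beside 1.65%). Without NiO 2, 12 lay higher (26.7%, beside 12%), and without ZnO 2, 6 lay lower (13.3%, beside 6.84%).

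Epithelial and ion transport genes describe the gill surface itself. Of 51 epithelial and mucous cell genes with 6 values, 0 lay higher and 0 lower on every ZnO array, beside 5.63% and 2.82% of all genes. The list's median difference was -0.01. The keratin krt1-c5 differed by 0.13 (interval -0.80 to 1.06) and the cornified envelope gene ppl by 0.30 (interval -0.45 to 1.05). The members of smallest p were the keratin krt99 (-1.31, interval -2.99 to 0.36) and the claudin cldnf (0.81, interval -0.22 to 1.84). Under ribosomal centring 1 lay higher and 3 lower (5.88%, beside 4.45% of all genes), and without ZnO 2, 6 lay lower (11.8%, beside 6.84%). Among 70 ion transport and ionocyte genes 2 (2.86%) lay higher and 2 (2.86%) lower, beside 5.63% and 2.82% of all genes.

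The ammonia channel rhcgl1, which carries ammonia out across gill cells, was 1 of those higher, with 0.72, 1.06 and 0.72 in ZnO pools and -0.36, -1.17 and -0.22 in NiO pools (difference 1.42, interval 0.51 to 2.33). The proton pump subunit atp6v0ca was the other (0.48). The ionocyte factor foxi1 lay lower, with -6.62, -7.06 and -6.53 in ZnO pools and -5.89, -3.29 and -6.01 in NiO pools (difference -1.68, interval -3.54 to 0.18), a gap made mostly by NiO 2. Its level on ZnO 2 was near background, since another probe at -6.84 on that array was not above it. The sodium chloride cotransporter slc12a10.1 had -7.16, -8.78 and -6.31 in ZnO pools and -6.72, -3.17 and -3.87 in NiO pools (difference -2.83, interval -5.43 to -0.23), where NiO 1 overlapped the ZnO pools. It was above background on 2 of 3 ZnO arrays. The calcium pump atp2b1a was the other gene that lay lower (-0.38). The carbonic anhydrase ca4a differed by 0.03 (interval -0.74 to 0.80) and the calcium channel trpv6 by 1.22 (interval -0.84 to 3.28). The sodium pump subunit atp1a1a.5 differed by -0.91 (interval -2.97 to 1.14) and the calcium-regulating hormone stc1 by -0.21 (interval -0.99 to 0.58). Without NiO 1, 8 of the 70 lay lower (11.4%, beside 5.09% of all genes), and without NiO 3, 7 lay higher (10%, beside 10.9%).

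Housekeeping lists were measured on the same arrays. Cytosolic ribosomal protein genes had a median difference of 0.13 with 0 of 77 separated either way, beside 5.63% of all genes higher and 2.82% lower. Oxidative phosphorylation genes had 0.04 with 1 of 69 (1.45%) higher. All 45 proteasome genes had a higher mean in ZnO, beside 58.2% of all genes. The smallest of these differences was 0.0005, and their median was 0.24, or 0.09 under ribosomal centring. On every ZnO array 4 (8.89%, beside 5.63%) lay higher. The proteasome count was 14 (31.1%, beside 11.2% of all genes) without ZnO 3, 15 (33.3%, beside 12%) without NiO 2 and 11 (24.4%, beside 7.67%) with each array's median at 0, but 1 (2.22%, beside 2.46%) under ribosomal centring. Without NiO 2, 14 of the 69 oxidative phosphorylation genes (20.3%) and 11 of the 77 ribosomal protein genes (14.3%) lay higher, beside 12% of all genes. The aryl hydrocarbon receptor target cyp1a had 2.65, 3.09 and 2.74 in ZnO pools and 2.28, 1.47 and 2.94 in NiO pools (difference 0.60, interval -0.48 to 1.69).

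The count of cholesterol synthesis genes moved with single pools. The demethylase cyp51 had 1.70, 3.19 and 1.15 in ZnO pools and 0.93, -0.37 and -0.17 in NiO pools (difference 1.88, interval 0.32 to 3.44). It was the sole member of 31 (3.23%, beside 5.63% of all genes) higher on every ZnO array. Without NiO 1, 14 of 31 (45.2%) were higher on every ZnO array, beside 8.43% of all genes, and the list's median difference was 0.66 in place of 0.44. Without ZnO 3 it was 7 (22.6%, beside 11.2%), and without ZnO 1 it was 4 of 31 (12.9%, beside 11.3%). The isomerase ebp differed by 1.37 (interval -0.03 to 2.77). NiO 1 was also the array with the high median of egg transcripts, and their part in this was not tested.

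Under the scaling used, the oocyte list had the largest share of members lower on every ZnO array among the 40 lists. Of 45 oocyte and early germ cell genes 13 (28.9%, beside 2.82% of all genes) lay lower on every ZnO array and 0 higher (beside 5.63%). The median difference was -2.46. The RNA-binding factor lin28ab, 1 of the 13, had -6.18, -7.89 and -6.22 in ZnO pools and 0.38, -3.46 and -3.58 in NiO pools. Its fitted difference was -4.55 (interval -7.36 to -1.74), but it entered the fit only through the NiO arrays. Another probe at -6.84 on ZnO 2 was not above background, and lin28ab was lower still there, so that size is not settled. The gene lin28ab was above background on 2 of 3 ZnO arrays. The egg factor gdf9 had -6.11, -5.70 and -5.18 in ZnO pools and 0.16, -3.70 and -4.55 in NiO pools. Without NiO 1 the list's median difference was -0.82, and 15 members (33.3%) lay lower on every ZnO array, beside 5.09% of all genes. Without ZnO 3 or NiO 3 it was 22 (48.9%, beside 7.46% and 5.19%). With each array's median at 0 it was 9 (20%, beside 1.65%). Under ribosomal centring it was 12 (26.7%, beside 4.45%), and after quantile normalization 7 (15.6%, beside 2.4%). In both of these the pancreas and intestine list had a larger share, 27.3%.

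Pancreas and intestine genes had 10 of 44 (22.7%, beside 2.82% of all genes) lower on every ZnO array and 0 higher (beside 5.63%). The median difference was -2.45, or -0.69 without ZnO 1. Without ZnO 3, 39 members (88.6%) lay lower, beside 7.46% of all genes. The amylase amy2al2 had -4.78, -3.48 and 0.52 in ZnO pools and 0.99, 1.73 and 1.08 in NiO pools, and the carboxypeptidase cpa5 had -2.84, -1.04 and 1.63 in ZnO pools and 1.83, 3.92 and 2.88 in NiO pools. ZnO 3 came close to the NiO pools in both. For 45 liver and plasma genes the median difference was -1.73, and 0.26 without ZnO 1.

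Motile cilia genes, which mark multiciliated cells and sperm, had a median difference of -1.18. Of 40 on the array 37 were tested. Of these, 34 had a lower mean in ZnO and 3 a higher mean, where 58.2% of all genes had a higher mean. On every ZnO array 3 (8.11%, beside 2.82% of all genes) lay lower. The median level was -3.24, -3.01 and -1.41 on the ZnO arrays and -1.67, -1.64 and -0.66 on the NiO arrays, where ZnO 3 overlapped the NiO range. Without ZnO 3, 22 of 37 (59.5%) lay lower on both ZnO arrays left, beside 7.46% of all genes. Without ZnO 1 it was 6 (16.2%, beside 6.76%). Across the scalings the count ran from 2 (5.41%, beside 2.4%) to 7 (18.9%, beside 3.67%). The lowest was after quantile normalization and the highest with the percentile over probes above background everywhere. The dynein docking factor odad3 had -2.41, -1.91 and -0.93 in ZnO pools and -0.71, -0.23 and 0.18 in NiO pools (difference -1.49, interval -2.68 to -0.31). The 18 testis genes followed a like order of arrays, with medians of -4.62, -4.71 and -2.65 on the ZnO arrays and -3.15, -2.19 and -1.22 on the NiO arrays, and the part of testis RNA in the cilia values was not tested.

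**Figure D5:**
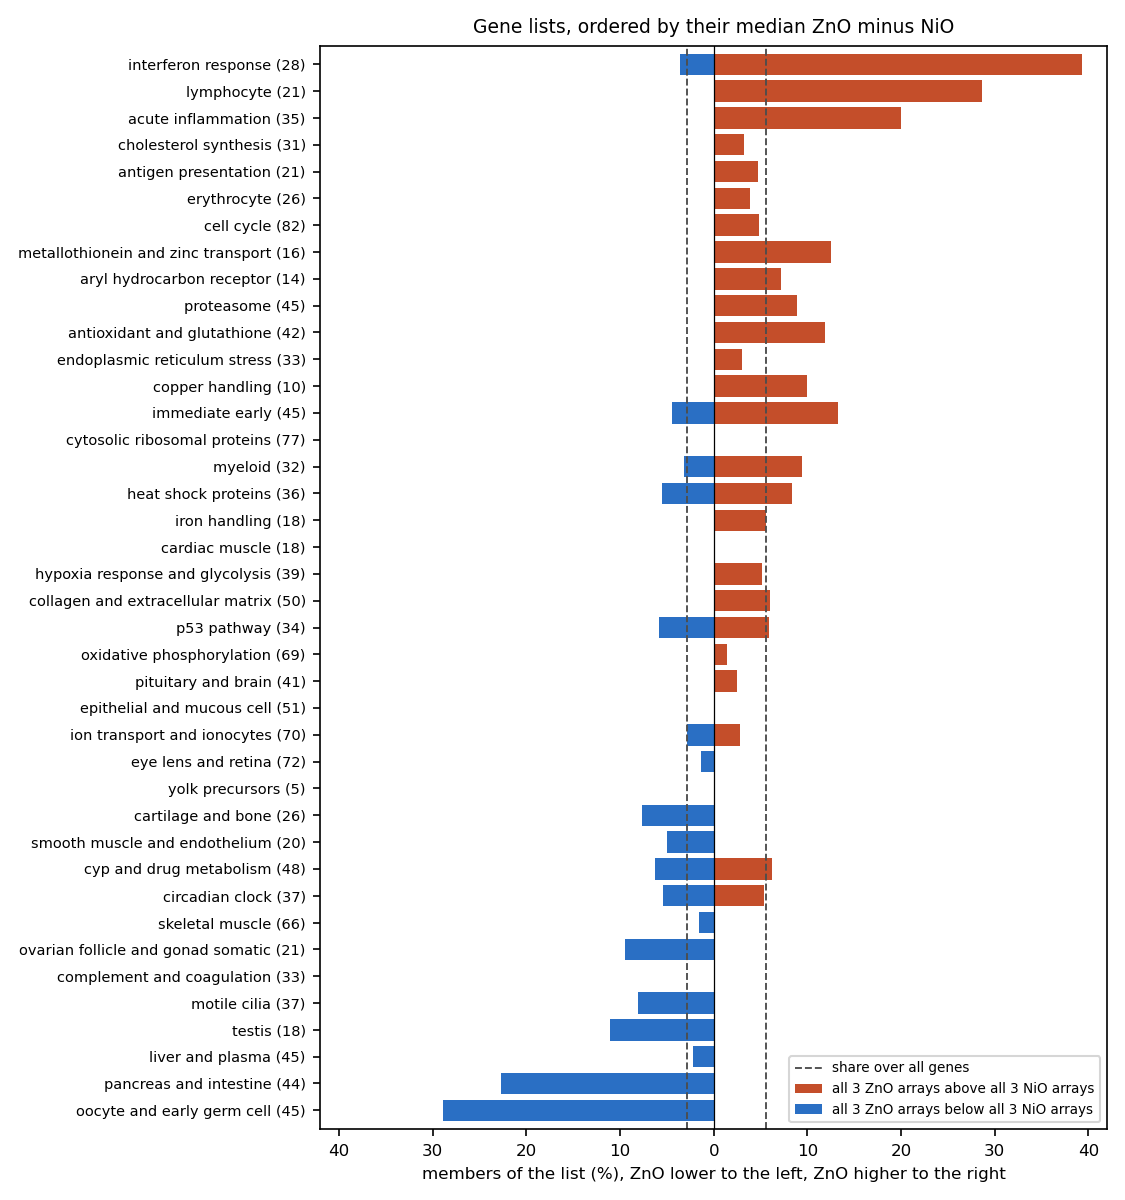
For 40 gene lists (members with 6 values in brackets), the share of members higher on every ZnO array than on any NiO array (orange, to the right) and lower (blue, to the left), ordered by the list's median difference. Dashed lines give the shares over all 11848 genes (5.63% higher and 2.82% lower); the interferon list reaches 39.3% at the top right and the oocyte list 28.9% at the bottom left.

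A transcript without a gene name was seen on the NiO arrays and not on the ZnO arrays. Probe A_15_P546382, annotated by the array with the non-coding RefSeq transcript NR_024238, matched no gene symbol here and was chosen after its values were seen. It had 0 of 3 ZnO pools well above background, with signals at -9.51, -8.82 and -9.26, and 3 of 3 NiO pools above it, with 0.34, 0.19 and -0.02. Against the lowest signal that counts as above background on each ZnO array, it was at least 147-fold lower in ZnO. A second probe of the same transcript, A_15_P343410, had -8.93, -8.88 and -9.34 in ZnO pools, again not above background, and -2.51, -0.87 and -2.45 in NiO pools, at least 33.9-fold lower in ZnO. Both probes entered the fit of 33513 probes only through the NiO arrays, where they are bright, and their ZnO signals are background, so the fitted p compares NiO signal with background. The first was the 1 probe under the threshold in that fit (limma adjusted p = 0.00346), and the second was not (0.0765). The first exceeded 0.05 with the replicate number as a block (0.625) and without ZnO 3 (0.0867), NiO 2 (0.0504) or NiO 3 (0.065).

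Such on and off patterns were few. Of 42701 probes with 6 values, 30 were well above background on all 3 NiO arrays and on 0 ZnO arrays, and 31 showed the opposite. At least 4-fold gaps were found for 16 of the 30 and 2 of the 31. The probe with the widest gap toward ZnO, A_15_P737981 of si:dkey-7c18.24, had 2.52, -0.26 and 0.42 in ZnO pools and -6.76, -6.83 and -8.57 in NiO pools, at least 181-fold higher in ZnO (limma adjusted p = 0.322 over all probes). The gene's brightest probe differed by 0.10 (interval -0.67 to 0.87), so the probes of this gene disagreed. Among genes fitted by their brightest probe the smallest limma adjusted p, 0.655, belonged to zgc:153118, with background signals of -8.70 and -9.08 in ZnO 2 and 3 (no value on ZnO 1, where the spot was an outlier) and -2.03, -2.19 and -0.15 in NiO pools. Both genes were chosen after their values were seen. The probe A_15_P737981 entered its fit only through the ZnO arrays and zgc:153118 only through the NiO arrays, so each p compares signal with background.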

How the data were processed

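Gill RNA was labelled with cyanine 3 and hybridised to Agilent zebrafish arrays. Per the file headers, Feature Extraction 11.5.1.1 wrote the deposited processed intensity, a background-subtracted linear signal, and marked spots that were outliers, saturated or clearly brighter than background. The submitters' processing notes name MAS5, whose role is not given in the sources used here. Of the 12 columns of the deposited series table, 10 held the intensity of another sample's array by the scanner files' links (at least 99.8% of probes equal within 0.1%), so the scanner files were used and the table, read by its column names, was an alternative.

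Control and outlier spots (0.0594% to 1.80% per array) were left out, spots of a probe were averaged, and log2 of the deposited signal was taken minus the 75th percentile of its array. Of 43603 probes, 26094 matched 1 current symbol (13443 genes) by RefSeq accession in the GRCz12tu table. Probes were tested if well above background on all 3 arrays of a group, and genes (12054, by their brightest probe) if they had at least 2 values per group. The fit was limma 3.58.1 in R 4.3.3, checked on simulated data. Named were 12 genes each way by smallest p, without clone symbols, up to 2 genes per list, a fixed panel, and up to 4 genes per tissue list with a range over 3 within a group. The comparison, the 40 gene lists and the panel were chosen with earlier results of these data known. Lists were described without a test. Same-numbered arrays shared a slide and a scan, but their deviations from the group means correlated at -0.31, -0.566 and 0.298, so the numbers were not taken as pairs. No sequences are shown, and figures were drawn with matplotlib 3.10.9. Some members of the interferon list enter its counts but are not reported here by name.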

Additional observations from a re-analysis of the deposited data

Results flagged for a closer look

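Both probes of the unnamed non-coding transcript described near the end of the report carried signal in the NiO pools above the level of the control arrays, which the comparison did not use. Probe A_15_P546382 had a mean level of 0.17 in NiO pools and -9.43 on the control arrays, and probe A_15_P343410 had -1.94 in NiO pools and -9.05 on the control arrays. On the 6 arrays of the CuO and control groups, 0 were well above background for either probe, with levels of -9.59 to -7.71 and of -9.60 to -8.02. The difference from the control arrays was not tested. Groups of 3 arrays were not examined for single outlying samples.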

How the results depend on the processing

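Of 28 alternatives, 25 left 0 genes called by limma, as in the result reported. The count was 0 to 1 when each array was left out in turn, and the single gene, without NiO 1, was serpina10a (higher, 9.12, limma adjusted p = 0.0157), which lay at 2.72, 2.92 and 2.41 in ZnO pools and at 2.68, -6.35 and -6.52 in NiO pools. Other probes at -6.30 on NiO 2 and at -6.38 on NiO 3 were not above background. The levels of serpina10a there were lower still, so that p sets ZnO signal against values near background. The 9.12 is thus not a settled size. Over all probes 1 was called, lower in ZnO, and at an unadjusted p under 0.05 the counts were 405 in all, 202 higher and 203 lower. At that unadjusted level the count ran from 235 (deposited table) to 826 (eye markers as a covariate). The replicate block, which is the same fit as slide or scan as a block, called 0 genes, with 318 at an unadjusted p under 0.05. The split of separated genes depended on the scaling: 667 higher and 334 lower as reported, 454 and 435 with the percentile over probes above background on all arrays, 291 and 527 with ribosomal centring, 908 and 196 with median centring, and 724 and 284 after quantile normalization. The median gene then lay at 0.09, -0.01, -0.07, 0.28 and 0.11. Of 161 genes followed, 60 had an interval excluding 0. Among these, 1 (tnfb) changed sign within the scanner files and 35 did when the deposited table was read by its column names. Of the 101 whose interval spanned 0, 35 changed sign within the scanner files. The causes were not tested. Normexp on mean signals was not run, since the files give median signals, which were used in its place (chosen after seeing the data, like the pancreas covariate and the settings tried for the unnamed probe).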

Other observations

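Genes of the matrix, cell cycle, p53, muscle, endothelium, clock, clotting and cytochrome lists add values not given above. The matrix glycoprotein tnn had -0.31, -0.46 and -0.90 in ZnO pools and -1.29, -2.12 and -1.29 in NiO pools (difference 1.01, 95% interval 0.09 to 1.93). The proliferation marker mki67 had 0.95, 0.09 and 0.62 in ZnO pools and -0.40, -0.69 and -0.17 in NiO pools (0.97, interval 0.10 to 1.85), 1 of the 4 of 82 cell cycle genes (4.88%) higher on every ZnO array, beside 5.63% of all genes. That count was 18 (22%, beside 1202 of 11854 genes) without ZnO 2 and 12 (14.6%, beside 8.43%) without NiO 1. The cyclin ccnd3 had -5.05, -6.19 and -2.2 in ZnO pools and -1.37, -2.52 and -1.26 in NiO pools (-2.76, interval -5.27 to -0.25), where ZnO 3 overlapped the NiO pools. The apoptosis effector baxb had 0.65, 0.54 and 0.50 in ZnO pools and -0.32, -0.61 and -0.01 in NiO pools (0.88, interval 0.13 to 1.63). Its p53 list neighbour tp53i11b lay lower on every ZnO array (-1.21, interval -2.11 to -0.31). Of 34 p53 list genes 2 (5.88%) lay higher on every ZnO array and 2 (5.88%) lower. The shares of all genes were 5.63% and 2.82%. The muscle calcium buffer pvalb3 had 3.74, 4.32 and 3.68 in ZnO pools and 4.65, 5.65 and 5.15 in NiO pools (-1.24, interval -2.19 to -0.28). Of 66 skeletal muscle genes 1 (1.52%, beside 2.82% of all genes) was lower on every ZnO array. That count was 10 (15.2%, beside 4.45% of all genes) under ribosomal centring and 20 (30.3%, beside 6.84%) without ZnO 2. The endothelial receptor kdrl had -5.90, -7.01 and -5.81 in ZnO pools and -4.28, -4.17 and -5.25 in NiO pools (-1.67, interval -2.87 to -0.47). It was above background on 2 of 3 ZnO arrays. The bile acid enzyme gene cyp8b1.1 had -5.43, -3.76 and -1.25 in ZnO pools and -0.05, -1.19 and 0.58 in NiO pools (-3.26, interval -5.89 to -0.63). It is also in the liver list and was lowest on ZnO 1. In the cytochrome list cyp2aa4 lay higher on every ZnO array (1.47, interval 0.25 to 2.70). Of 48 members 3 (6.25%) lay higher and 3 (6.25%) lower, beside 5.63% and 2.82% of all genes. The clock genes nr1d1 and per1b differed by -0.98 (interval -2.34 to 0.39) and -0.17 (interval -1.46 to 1.12), and the cytochrome cyp1b1 by 1.09 (interval -0.54 to 2.72). The clotting gene fgb had -2.39, 3.98 and 5.2 in ZnO pools and 4.47, 4.05 and 5.21 in NiO pools, low on ZnO 1 as was the median of the liver list.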
